A study of Mus musculus with 5 samples.

Results

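A set of 9 transcription factor genes known as regulators of fibroblasts and limb mesenchyme was examined for H3K27me3, the trimethylated form of lysine 27 of histone H3. They were Twist1, Twist2, Prrx1, Prrx2, Meox1, Meox2, Alx1, Alx4 and Shox2, chosen by name from the 22350 protein-coding genes annotated on chromosomes 1 to 19 and X of the mm9 build. Their start sites and gene bodies were set against the intervals called in 3 H3K27me3 ChIP-Seq libraries of mouse embryonic fibroblasts (MEFs).

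The MEF lines came from an embryo with a floxed Eed gene, which encodes a subunit of Polycomb Repressive Complex 2 (PRC2), the enzyme that methylates this lysine. Cells of the K27R group were stably transduced with H3.3K27R, a histone with arginine in place of the lysine, and served here as the reference. The K27M group stably expressed H3.3K27M, the histone mutant of diffuse midline glioma, and the EZHIP group stably expressed human EZHIP, a PRC2-binding protein of posterior fossa ependymoma. All 3 lines carried a lentiviral transgene and an Eed gene that had not been deleted. The parental cells and the Eed deletion line, a single clone, were not analysed here. There was 1 library per group and no replicate, and the intervals held positions with no height or read count, so depth was unknown and every value describes these libraries without a test. An interval in a bulk culture also cannot tell a mark in all cells from a mark in some of them.

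Twist1 and Twist2 encode basic helix-loop-helix factors that maintain mesenchymal progenitors, and Twist1 is also a driver of epithelial-mesenchymal transition. Prrx1, Prrx2, Alx1, Alx4 and Shox2 encode paired-related homeodomain factors that pattern the limb and the craniofacial skeleton, and Meox1 and Meox2 encode homeodomain factors of the somites. PRC2 is known to hold such developmental genes silent in lineages that do not use them, often at CpG-rich start sites, and to spread H3K27me3 outward from there.

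Of the 9 genes, 6 (Twist1, Twist2, Prrx1, Prrx2, Shox2 and Meox1) had their start site outside every K27R region, every K27M peak and every EZHIP peak. The other 3 genes, Meox2, Alx1 and Alx4, had their start site in a K27R region, which was a share close to the 30.1% of all protein-coding start sites (6735 genes). All 3 also had their start site in a K27M peak, where 9.02% of all start sites lay, and 2 of the 9, Meox2 and Alx1, had it in an EZHIP peak, against 7.73% of all start sites. Among all genes with a K27R-marked start site, 29.9% were kept in a K27M peak and 25.6% in an EZHIP peak. With 3 marked genes, the counts of 3 kept in K27M and 2 kept in EZHIP are a description of those genes.

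The promoters of 5 members are shown so that promoters with and without the mark can be read side by side for their CG dinucleotides. Each runs from 250 bases before to 50 bases after the start site in mm9, and capitals mark CG dinucleotides. Twist1 (chr12:34642286-34642585, plus strand) and Prrx1 (chr1:165243792-165244091, minus strand) lay outside all 3 lists, Meox2 (chr12:37834877-37835176, plus strand) and Alx1 (chr10:102491636-102491935, minus strand) lay in all 3, and Alx4 (chr2:93482291-93482590, plus strand) lay in the K27R and K27M lists.
Twist1: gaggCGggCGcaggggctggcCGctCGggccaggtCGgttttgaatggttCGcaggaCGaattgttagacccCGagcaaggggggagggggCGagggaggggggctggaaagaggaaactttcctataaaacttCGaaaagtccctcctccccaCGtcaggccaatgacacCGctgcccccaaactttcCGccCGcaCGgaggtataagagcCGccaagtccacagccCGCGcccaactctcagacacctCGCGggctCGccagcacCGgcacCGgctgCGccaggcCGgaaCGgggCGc
Prrx1: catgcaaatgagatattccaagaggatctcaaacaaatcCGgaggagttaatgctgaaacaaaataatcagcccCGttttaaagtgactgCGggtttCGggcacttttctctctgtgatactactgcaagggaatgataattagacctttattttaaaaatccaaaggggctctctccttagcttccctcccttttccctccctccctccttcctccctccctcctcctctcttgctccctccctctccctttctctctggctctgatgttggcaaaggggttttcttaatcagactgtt
Meox2: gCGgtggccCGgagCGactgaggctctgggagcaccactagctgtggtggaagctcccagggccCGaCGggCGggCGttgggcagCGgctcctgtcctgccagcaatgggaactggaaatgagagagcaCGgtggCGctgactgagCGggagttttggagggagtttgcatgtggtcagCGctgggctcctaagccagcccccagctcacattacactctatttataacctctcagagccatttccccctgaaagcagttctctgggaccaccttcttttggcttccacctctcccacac
Alx1: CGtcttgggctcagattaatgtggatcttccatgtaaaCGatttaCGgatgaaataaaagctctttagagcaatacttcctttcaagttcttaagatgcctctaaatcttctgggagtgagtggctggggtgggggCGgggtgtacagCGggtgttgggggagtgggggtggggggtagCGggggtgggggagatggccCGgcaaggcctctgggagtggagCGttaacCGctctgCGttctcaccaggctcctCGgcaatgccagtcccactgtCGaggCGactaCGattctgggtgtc
Alx4: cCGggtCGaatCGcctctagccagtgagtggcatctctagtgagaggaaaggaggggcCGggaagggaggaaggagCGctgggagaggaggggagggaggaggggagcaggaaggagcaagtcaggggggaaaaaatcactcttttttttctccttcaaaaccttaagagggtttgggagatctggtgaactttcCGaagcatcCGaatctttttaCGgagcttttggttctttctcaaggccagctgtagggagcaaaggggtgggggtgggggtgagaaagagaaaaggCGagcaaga

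The promoter of Twist1 held 27 CG dinucleotides and that of Twist2 held 25, the highest counts of the 9, and both start sites were unmarked. The marked promoters held 12 (Meox2), 14 (Alx1) and 9 (Alx4). The other unmarked promoters held 4 (Prrx1), 5 (Prrx2), 10 (Meox1) and 11 (Shox2). Marked and unmarked members thus overlapped in CG count. Over all protein-coding genes the median count was 11, with 8 for start sites in K27R regions and 13 for those outside. At least 27 CG dinucleotides were found in 18.4% of all promoter windows of this length, and at least 12, the count of Meox2, in 49.9%.

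CpG islands, found here by sequence, lay within 1000 bp of the start site of 5 members: Twist1, Twist2, Shox2, Alx1 and Alx4. Of these, Twist1, Twist2 and Shox2 were outside K27R regions, and among all 12041 genes with such an island 25.1% had a K27R-marked start site. Meox2 had no island within 1000 bp of its start site or anywhere in its K27R region, and kept a peak in both inhibitor lines. Its 1 island lay 52.2 to 53.0 kb downstream of the start, outside all lists. Of all K27R-marked start sites kept in K27M, 1591 of 2011 had an island within 1000 bp, and of those kept in EZHIP 1349 of 1724. Among genes with an island and a K27R-marked start site, 52.6% kept the start site in a K27M peak and 44.6% in an EZHIP peak, and of the 2 members of this kind, Alx1 was kept in both and Alx4 in K27M.

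**Figure D1:**
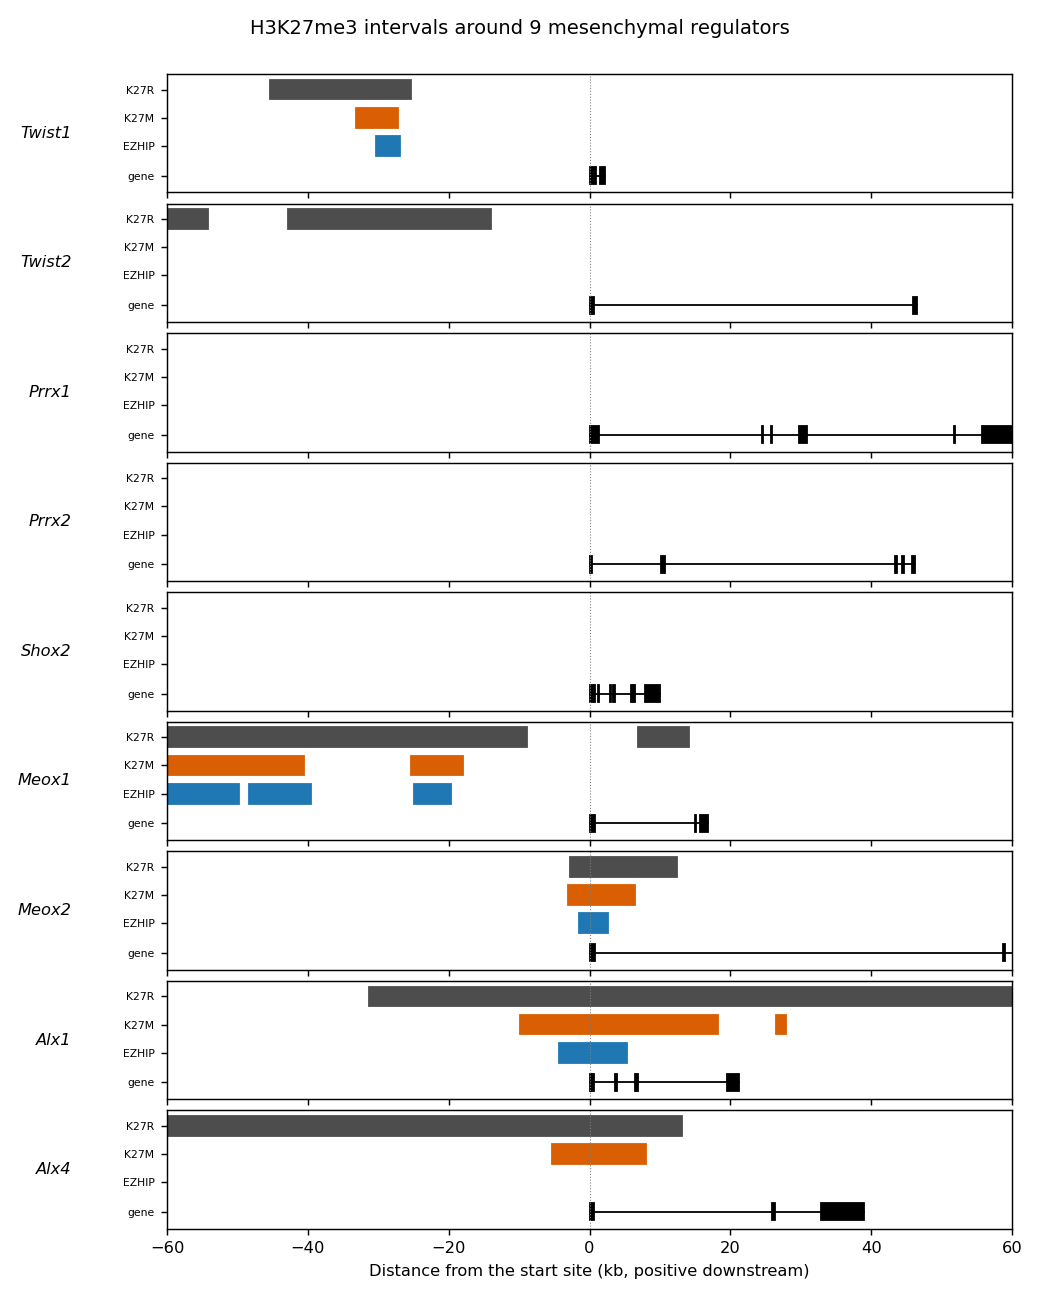
Intervals of the K27R (grey), K27M (orange) and EZHIP (blue) lists from 60 kb before to 60 kb after the start site of each gene, drawn in the direction of transcription with exons as black boxes. The start sites of Meox2, Alx1 and Alx4 lie in intervals, and the windows of Prrx1, Prrx2 and Shox2 hold none.

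Twist1 (ENSMUSG00000035799.5, chr12:34642536-34644682, plus strand) is a gene of 2 exons and 2.15 kb. No base of it lay in an interval of any list. A 1750 bp CpG island with 185 CG dinucleotides spanned its start site, from -0.719 to 1.03 kb relative to it, and was also free of intervals. The nearest K27R region, chr12:34597201-34617200, was 20.0 kb wide and ended 25.3 kb upstream of the Twist1 start site. That region held the start site of Ferd3l, another basic helix-loop-helix gene, whose body was covered by intervals in all 3 lists. Within it the K27M list kept a 6.0 kb peak and the EZHIP list a 3.4 kb peak, both over the Ferd3l start site. The marked Ferd3l and unmarked Twist1 start sites were 29.2 kb apart. On the other side of Twist1 the next K27R region began 678 kb downstream, so that Twist1 lay in a stretch of 703 kb free of K27R regions, with Hdac9 as the only other protein-coding gene whose start site lay in it.

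Twist2 (ENSMUSG00000007805.3, chr1:93698038-93744605, plus strand) was also free of intervals over its 46.6 kb. Its start site sat in the longest island found at a member, 1795 bp with 149 CG dinucleotides. A K27R region of 28.8 kb, chr1:93655201-93684000, ended 14.0 kb upstream of the start site and held no protein-coding gene and no island. Neither inhibitor line had a peak in that region, and the nearest K27M and EZHIP peaks to the Twist2 start site, over the olfactory receptor gene Olfr1416, were 674 kb away in both lists. Both Twist genes had a K27R region within 50 kb upstream. The region beside Twist1 kept a peak in each inhibitor line, and the region beside Twist2 kept none.

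Prrx1 (ENSMUSG00000026586.8, chr1:165175247-165243841, minus strand), a regulator of limb bud mesenchyme, was free of intervals over its 68.6 kb and 7 exons. Its nearest K27R region began 229 kb downstream of the start site. The neighbouring protein-coding genes were 4921528O07Rik on that side and Gorab on the other. The nearest EZHIP peak was 768 kb away and the nearest K27M peak 2139 kb away. The stretch without K27R regions around it was 916 kb long and held 8 protein-coding start sites. Prrx1 had no island within 1000 bp of its start, but a 620 bp island with 50 CG dinucleotides lay 1.09 to 1.71 kb downstream, and it was unmarked too.

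Prrx2 (ENSMUSG00000039476.6, chr2:30690492-30736761, plus strand), the paralog of Prrx1, was the member farthest from a K27R region, at 385 kb. It lay in a stretch of 1459 kb without K27R regions that held 41 protein-coding start sites, and its start was 4.64 kb from that of Asb6, also unmarked. The K27M and EZHIP peaks nearest to it were 473 and 474 kb away, both over Hmcn2. The 5′ end of Prrx2 in the annotation belongs to a first exon with no island. Other annotated transcripts began 10.1 and 10.5 kb downstream, beside a 531 bp island with 74 CG dinucleotides, and these starts were outside all lists as well.

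Shox2 (ENSMUSG00000027833.8, chr3:66775649-66785693, minus strand), a short stature homeobox gene of the proximal limb, had 4 CpG islands in its 10.0 kb body and no interval over any of them. Its 6 annotated transcript starts were all outside the 3 lists. The closest K27R region was 163 kb away, the closest K27M peak 533 kb and the closest EZHIP peak 910.3 kb. Rsrc1 starts on the opposite strand 0.381 kb inside Shox2, and its start site was likewise outside all 3 lists.

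The 6 unmarked start sites spanned a wide range of distances to a K27R region. In order these were 6.89 kb for Meox1, 14.0 kb for Twist2, 25.3 kb for Twist1, 163 kb for Shox2, 229 kb for Prrx1 and 385 kb for Prrx2. Over all 15615 unmarked protein-coding start sites the median was 53.0 kb, with quartiles of 16.0 and 153 kb. Meox1 and Twist2 were below the first quartile, Twist1 was between the first quartile and the median, and the remaining 3 were above the third quartile.

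**Figure D2:**
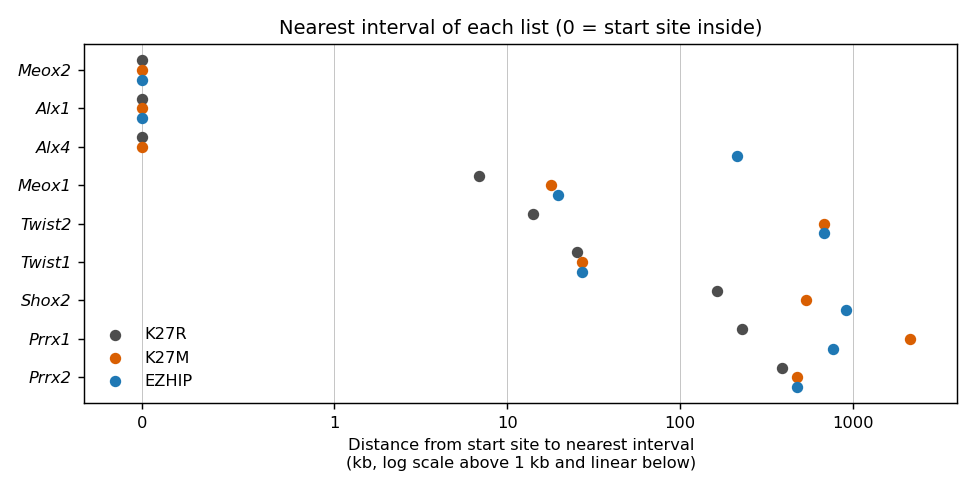
Distance from the start site of each gene to the nearest interval of each list, in kb, on an axis that is logarithmic above 1 kb, with 0 for a start site inside an interval. Meox2 and Alx1 are at 0 in all 3 lists and Alx4 in K27R and K27M, while the distances of the other 6 genes to a K27R region run from 6.89 to 385 kb.

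Meox1 (ENSMUSG00000001493.9, chr11:101738824-101755688, minus strand) differed from the other unmarked genes in having a K27R region inside its body. Counting it, 4 of the 9 gene bodies touched a K27R region, against 36.1% of all protein-coding genes, and the 5 without any were both Twist genes, both Prrx genes and Shox2. The region, chr11:101741601-101748800, was 7.2 kb wide and lay from 6.89 to 14.1 kb downstream of the start, wholly within the first intron. It covered 42.7% of the gene, none of the 3 exons and no island. Neither K27M nor EZHIP cells had a peak over it. A second K27R region of 89.6 kb began 8.91 kb upstream of the gene and held Sost, an inhibitor of bone formation, together with Dusp3 and 1700006E09Rik. There K27M peaks covered 46.4% and EZHIP peaks 45.8% of the region. The Meox1 start site therefore sat in a gap of 15.8 kb between K27R regions, which put it among the shortest 1.18% of the stretches around unmarked start sites, whose median was 288 kb.

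Meox2 (ENSMUSG00000036144.4, chr12:37835127-37908372, plus strand), the paralog of Meox1, had the reverse layout, with the mark over its start site and most of its 73.2 kb body free. Its K27R region, chr12:37832401-37847600, was 15.2 kb wide, from 2.73 kb upstream to 12.5 kb downstream. The K27M peak, chr12:37832001-37841600, was 9.6 kb wide and reached 3.13 kb upstream, 400 bp beyond the K27R region, and 6.47 kb downstream. The EZHIP peak, chr12:37833601-37837800, was 4.2 kb wide, from 1.53 kb upstream to 2.67 kb downstream. Each of the 3 intervals covered exon 1 in full and neither of the other exons. The K27R region took up 17.03% of the body, the K27M peak 8.84% and the EZHIP peak 3.65%. Meox2 stood alone, since the next K27R regions were 436 kb before and 1587 kb after the gene.

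Alx1 (ENSMUSG00000036602.6, chr10:102470481-102491685, minus strand), a factor of craniofacial mesenchyme, had the largest share of its body covered in each list among the 9 genes. Its K27R region, chr10:102430801-102523000, was 92.2 kb wide, held no other protein-coding start site, and covered the gene completely. The K27M peak, chr10:102473401-102501600, was 28.2 kb wide and covered exons 1 to 5 of 6 and 86.2% of the gene. A further K27M peak of 1.4 kb lay 26.5 to 27.9 kb downstream of the start, past the end of the gene. The EZHIP peak, chr10:102486401-102496000, was 9.6 kb wide and covered exons 1 to 3 and 24.9% of the gene. A transcript start 6.48 kb downstream of the gene start was in the K27R and K27M intervals and 1.19 kb outside the EZHIP peak. The 1 island of the K27R region, 497 bp with 39 CG dinucleotides at 0.389 to 0.885 kb downstream of the start, lay inside both peaks.

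Alx4 (ENSMUSG00000040310.6, chr2:93482541-93521496, plus strand), a factor of the limb bud and skull, separated the inhibitor lines. Its K27R region, chr2:93313201-93495600, was 182 kb wide, mostly upstream of the gene, and also held the start site of Gm10803. The K27M peak, chr2:93477201-93490600, was 13.4 kb wide and ran from 5.34 kb upstream to 8.06 kb downstream. It covered exon 1 and all 3 islands of the region, of 1051, 265 and 345 bp. The EZHIP list had no peak anywhere in the K27R region, and its nearest peak was 213 kb from the start site. The K27R region covered 33.5% of the body and the K27M peak 20.7%. Of all genes with a start site in both K27R and K27M intervals, 26.6% were outside EZHIP peaks (535 of 2011). Without peak heights, the absence of an EZHIP call over Alx4 does not tell an absent mark from one below the threshold of the caller.

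**Figure D3:**
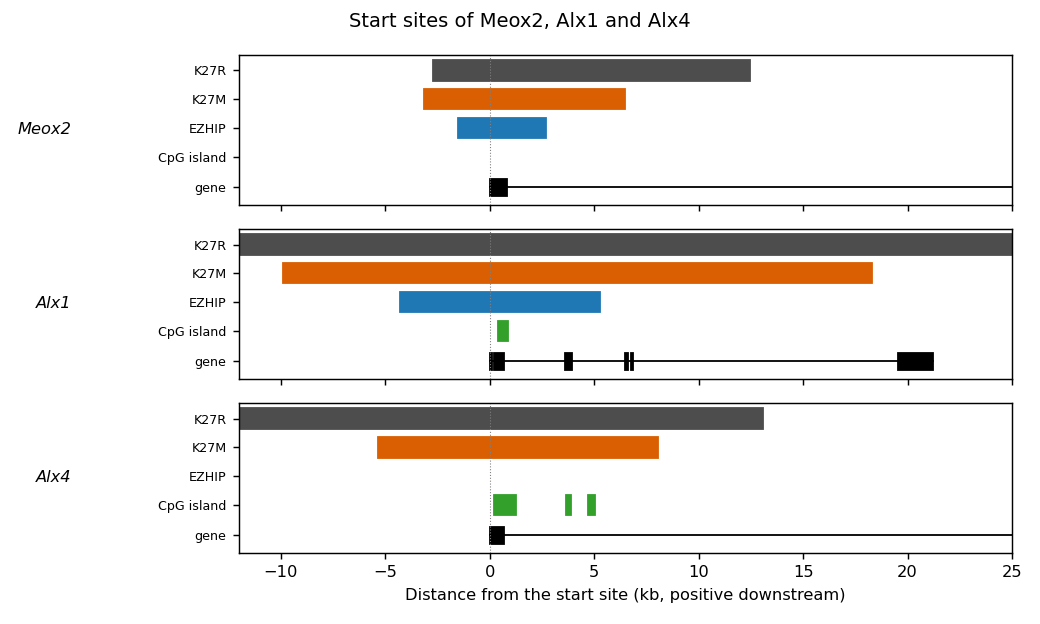
Intervals of the 3 lists, CpG islands (green) and exons (black) from 12 kb before to 25 kb after the start sites of Meox2, Alx1 and Alx4, in the direction of transcription. The interval over each start site narrows from K27R to K27M, and from K27M to EZHIP at Meox2 and Alx1, and Alx4 has no EZHIP peak.

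The interval over the start site was narrower in K27M than in K27R at all 3 marked genes, and narrower in EZHIP than in K27R at Meox2 and Alx1, while Alx4 had no EZHIP peak. The K27R region was 1.58-fold wider than the K27M peak at Meox2, 3.27-fold at Alx1 and 13.6-fold at Alx4. It was 3.62-fold wider than the EZHIP peak at Meox2 and 9.60-fold at Alx1. At both genes that kept both peaks, the K27M peak was the wider one (2.29-fold and 2.94-fold) and the EZHIP peak lay wholly inside it. Of all 1476 genes with the start site in all 3 lists, 78.7% had the wider peak in K27M and 69.9% had the EZHIP peak wholly inside the K27M peak. The lists themselves differed in how close 2 intervals lay, the shortest gap being 0 kb for K27R regions, 5.2 kb for K27M peaks and 1.2 kb for EZHIP peaks. The methods of the study give common caller settings for H3K27me3, with a maximum gap larger than each of these. The part of the gaps in the widths was not tested.

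The EZHIP peaks were centred close to the start site, 0.574 kb downstream at Meox2 and 0.484 kb downstream at Alx1. The K27M peaks were centred 1.67 kb downstream at Meox2, 4.18 kb at Alx1 and 1.36 kb at Alx4. Over all kept start sites the median distance from centre to start was 1.13 kb in EZHIP and 1.51 kb in K27M. The K27M peaks filled 60.5% of the K27R region at Meox2, 32.1% at Alx1 and 7.35% at Alx4, against a median of 22.0% (quartiles 10.3% and 43.3%) over the 2011 genes kept in K27M. The EZHIP peaks filled 27.6% at Meox2 and 10.4% at Alx1, against a median of 17.5% (quartiles 8.45% and 34.5%) over 1724 genes. The filled share is taken over the width of the K27R region, so for a peak of given size it falls as the region widens. Among the marked members the narrowest region was filled most by its K27M peak and the widest least. The K27M peaks themselves were 9.6 kb wide at Meox2, 28.2 kb at Alx1 and 13.4 kb at Alx4, which was not the order of the regions.

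Set against all intervals that held a start site, the K27R region of Meox2 was narrow, wider than or equal to 16.3% of 3623 regions with a median of 53.6 kb. That of Alx4 was wider than or equal to 84.9% of them. In K27M (median 10.0 kb) the peak of Alx1 was the widest of the members, at or above 81.7% of 1717 peaks, and in EZHIP (median 8.0 kb) the Meox2 peak was at or above 20.0% of 1567 peaks.

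**Figure D4:**
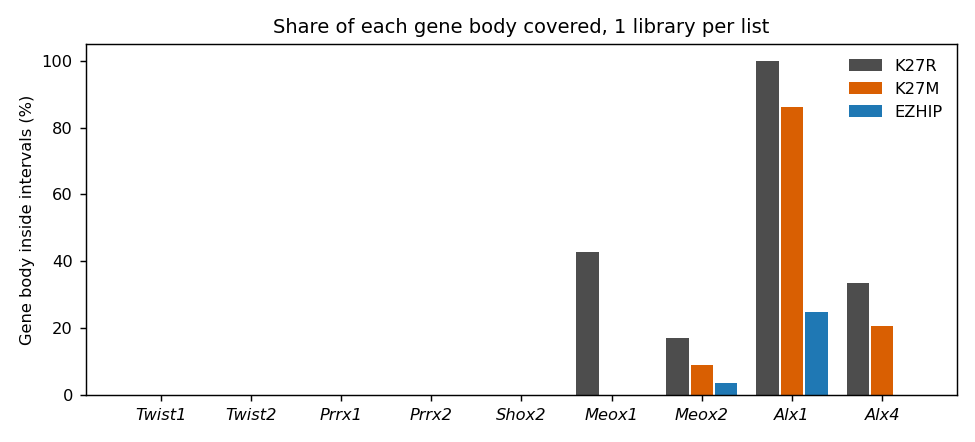
Share of each gene body, in percent, inside intervals of the K27R, K27M and EZHIP lists, with 1 library per list and so no error bars. Alx1 falls from 100% to 86.2% and 24.9%, Meox1 is covered in K27R alone (42.7%), and Twist1, Twist2, Prrx1, Prrx2 and Shox2 are at 0% in all 3.

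The median body cover of the 9 genes was 0% in each list, as it was over all protein-coding genes. The combination of the 9 genes across the lists fell into 3 classes. The 6 unmarked members shared their class with 15607 genes (69.8%), Meox2 and Alx1 with 1476 genes (6.60%), and Alx4 with 535 genes (2.39%). No member belonged to the class marked in K27R alone at the start site, which held 4476 genes (20.0%).

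Other regulators of mesenchyme and limb, in a list chosen with earlier results of these data known, were counted beside the members. Of 42 such genes, 25 (59.5%) had the start site in a K27R region, 23 in a K27M peak and 19 in an EZHIP peak. Over all protein-coding genes these shares were 30.1%, 9.02% and 7.73%. A CpG island lay within 1000 bp of the start site at 36 of the 42, and at 12041 of all 22350 genes. Among all genes with such an island, 25.1% had a K27R-marked start site, below the share over all genes. Of those marked genes with an island, 52.6% were kept in K27M and 44.6% in EZHIP. The part of the islands in the counts was not tested. Of the 42, 18 had the mark in all 3 lists, against 6.60% of all genes. These included Barx1, Dlx5, Dlx6, En1, Hand1, Hand2 and Msx1. Another 17 of the 42 had the start site outside all lists, against 69.8% of all genes. They included the limb growth factor gene Fgf10 and the regulators Foxc1, Gli3, Hic1, Meis1, Meis2, Osr1 and Runx2. The start site of Hic1 was only 0.18 kb from a K27R region, less than the 200 bp grid of the intervals, and that of Meis1 6.04 kb. A K27R region lay over part of the body of 1 gene with an unmarked start site. The pattern of Alx4, kept in K27M and not in EZHIP, was found at 5 of the 42, Foxc2, Foxd1, Foxf1a, Pax1 and Sox9. Genes were counted singly, and those near each other, such as Foxc2 (chr8:123640071) and Foxf1a (chr8:123608286), need not be separate loci. These 5 were among the 23 marked in both K27R and K27M, and 26.6% of all such genes (535 of 2011) had the pattern. The 5 genes are named here after their values were seen. The reverse pattern was found at Lmx1b, and Sp7 was marked in K27R only, both likewise picked after the fact.

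Of 14 fibroblast genes, 13 had the start site outside all 3 lists, as did 69.8% of all protein-coding genes and 6 of the 9 members, and Pdgfra was in all 3. These lists were chosen with results of these data known and are no independent check of the cell type. Of 12 annotated regulators of other lineages, 11 were marked in K27R and 10 in all 3 lists, against 30.1% and 6.60% of all genes. A CpG island lay near the start site at 10 of the 12. Cdx2 and Pdx1 among them start near each other on chromosome 5 and were counted singly. Gata1 was marked in K27R only and Myf5 in none. These exceptions were named after their values were seen. H3K27me3 intervals do not measure expression, which was not analysed here.

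**Figure D5:**
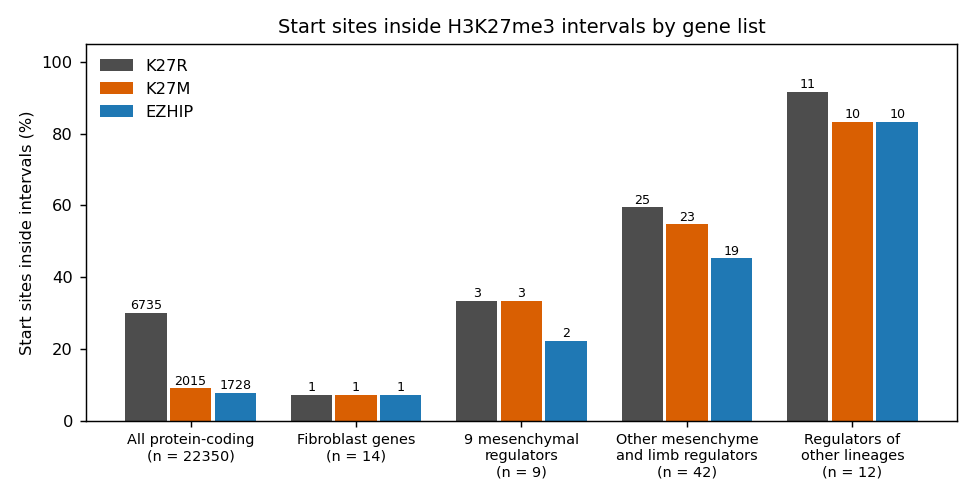
Percentage of start sites inside intervals of each list for all protein-coding genes, fibroblast genes, the 9 mesenchymal regulators, 42 other mesenchyme and limb regulators and 12 regulators of other lineages, with the number of genes above each bar. The 9 regulators have 3, 3 and 2 start sites inside, and the regulators of other lineages 11, 10 and 10 of 12.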

How the data were processed

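H3K27me3 ChIP-Seq was done by the authors in MEFs on MNase-digested chromatin. Groups were taken from the sample labels, and interval lists of 3 of the 5 samples were analysed. Per the methods of the study, bowtie1 (Bowtie 1.0.0 in the submitters' processing notes) placed reads on mm9 and on a spike-in reference genome, and broad regions were called with MOSAiCS-HMM in each library. The lists deposited by the authors give chromosome, start and end only, with no read count, score or p-value, so their unit is a genome position and no interval for counting error could be given. Whether the reference genome entered the calls, and which background the caller used, is not given in the sources used here.

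All interval edges lay on a grid of 200 bp. Starts were read as counting from 0 and are printed counting from 1. The mm9 genome and GENCODE vM1 annotation were used without conversion. A gene was represented by its 5′ end, an overlap needed 1 bp, and the nearest interval was measured from that base. Exons were merged over all annotated transcripts of a gene and numbered from its 5′ end, so they need not be the exons of any one transcript. Of the 2 entries named Alx1, ENSMUSG00000036602.6 was used. CpG islands were segments longer than 200 bp whose G+C content reached 50% and whose CpG count exceeded 0.6 of that expected from base composition, found by a score of 17 per CG and -1 per other base, without masking repeats, which gave 23502 islands. No test was run, since each group had 1 library, and members were set beside the same count over all genes. The members and gene lists were chosen with earlier results of these data known. All members were named, together with genes sharing a member's K27R region. The rule also covered the nearest protein-coding genes on either side of unmarked members, of which only some are named. From the list of other regulators it took up to 8 genes in alphabetical order with the start site in all lists, and likewise in none. A gene that this rule also named is not reported here. Promoters were to be printed for unmarked members and those kept in both lists, and a selection of these plus Alx4 is shown. Of the regulators of other lineages, 12 of 14 were matched by symbol. Interval tools and the island finder were tested on simulated data with known answers. Python 3.11.15, numpy 2.4.6, pandas 2.3.3 and matplotlib 3.10.9 were used.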

Additional observations from a re-analysis of the deposited data

How the results depend on the processing

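The counts of marked and kept members were recomputed with any annotated transcript start, an interval within 5000 bp of the start, 50% of a 2000 bp window around it, joining of intervals up to 10000 bp apart, minimum widths of 2000 and 5000 bp, and intervals shortened by 200 bp at each end. With intervals of at least 5000 bp, the number of members in an EZHIP peak and the number kept there both went from 2 to 1, because the 4.2 kb peak over Meox2 was dropped. Taking the mean body cover in place of the median (0%) gave 21.5% for K27R, 12.9% for K27M and 3.17% for EZHIP, where the means over all protein-coding genes were 26.6%, 4.85% and 3.91%. The other 45 of 50 recomputed values were unchanged in count or in median. These values are not separate checks, since the members kept in each inhibitor list were the same as those with a start site in it. A filter that only drops intervals also cannot raise a median of 0%. The share of all start sites in K27R regions was 28.2% on autosomes. No paired analysis was possible because each group had 1 library and no test was run. Depth is unknown, and variation between cultures cannot be told apart from the effect of the transgenes.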
